A study of Mus musculus with 33 samples.

Results

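The genes described here encode the basement membrane of blood vessels and the matrix proteins, modifying enzymes and inhibitors that surround it in bone marrow. They are 35 named genes, found by symbol among 38899 genes listed in each of 4 expression tables, and each of the 35 was present in all 4. The set holds the collagen chains Col4a1, Col4a2, Col15a1 and Col18a1, the laminin chains Lama3, Lama4, Lama5, Lamb1, Lamb2 and Lamc1, the nidogens Nid1 and Nid2, and the heparan sulphate proteoglycans Hspg2 and Agrn. It also holds the matrix glycoproteins Sparc, Sparcl1, Fn1, Fbln2, Fbln5, Fbn1, Emilin1, Mmrn1, Mmrn2, Egfl7, Bgn, Thbs1, Tinagl1, Igfbp7 and Vwa1, the inhibitor Timp3, and the collagen-processing proteins Serpinh1, Plod1, Plod2, Lox and Loxl2.

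A basement membrane is a thin sheet that endothelial cells lay down beneath themselves. Laminin trimers, each of an alpha, a beta and a gamma chain, form a network at the cell surface, a network of type IV collagen lies against it, and nidogens and the proteoglycans perlecan (Hspg2) and agrin (Agrn) join them. In bone marrow the wide sinusoids are known for a thin and discontinuous basement membrane, while arterioles and the vessels at the growth plate have a denser one.

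The main chains of type IV collagen are encoded head to head, which sets the place where both genes start. In the GENCODE vM21 annotation of GRCm38, Col4a1 spans chromosome 8, bases 11198423 to 11312826, on the minus strand, and Col4a2 spans chromosome 8, bases 11312805 to 11449287, on the plus strand. In RefSeq, on GRCm38.p6, their start sites bound the same 22 bases, chr8:11312805-11312826, shown here on each gene's own strand because the paired levels of these genes recur below. Capitals mark a GGGCGG box, which reads CCGCCC on the other strand.
Col4a2 strand: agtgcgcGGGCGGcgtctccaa
Col4a1 strand: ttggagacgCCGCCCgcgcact
The RefSeq promoter windows run from 250 bases before a start to 50 bases after it. GGGCGG, searched on both strands, was found in 35.7% of 32851 such windows and in 18 of the 23 genes of the set that have a window. CCAAT, searched in the same way, was found in 37.4% of windows and in 8 of the 23 genes. Shares of windows and counts of genes are unlike units, since a gene counted if any of its windows held the motif. No enrichment can be read from them. The windows of Col4a1 and of Col4a2 held both motifs, and since they overlap these are in part the same bases.

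The study sequenced RNA of 33 samples from C57BL/6 mice aged 8 to 12 weeks, in 11 groups with 3 libraries each. Irradiated bone endothelial cells (irradiated bone EC) were GFP+ cells of femur and tibia from Cdh5-mTnG reporter mice given 9 Gy, and bone EC were the same population from untreated mice. Vav1 DTX EC and Vav1 control EC were GFP+ cells of Vav1-Cre R26-DTR Cdh5-mTnG mice; the labels of both groups give diphtheria toxin as treatment and differ only in the sample name. In such mice the toxin receptor is set by Vav1-Cre, a driver of blood cells that is known to act in some endothelial cells as well. Apln+ EC were GFP+ cells of tamoxifen-treated Apln-CreERT2 R26-mTmG mice, and diaphysis EC were GFP+ cells of the femoral shaft of untreated Cdh5-mTnG mice. The 9Gy1D EC came from Cdh5-mTnG mice given 9 Gy, and Esm1+ EC from Esm1-CreER R26-mTmG mice given tamoxifen; both are labelled as Tomato+/GFP+ marrow cells. Wild-type untreated mice gave LSK cells (Lin-Sca1+cKit+, the stem and progenitor fraction), lineage-negative cells (Lin-) and whole bone marrow cells (BMC).

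Values are FPKM, which divides the reads of a gene by its length and by the depth of the library, so that levels of different genes can be compared within a library. The libraries held at least 1550936 to 12287691 reads assigned to genes, recovered from the steps between values. All 16 pan-endothelial markers reached 1 FPKM in each of the 8 endothelial groups, but blood cell RNA was present in all of them: the summed level of 7 neutrophil markers was 928 to 4270 FPKM in irradiated bone EC and 25765 to 134333 FPKM in the other endothelial libraries. Libraries that stood apart from their group were Apln+ EC replicate 1, with a pan-endothelial sum of 769 FPKM against 2775 and 2899 FPKM in the other Apln+ libraries, Vav1 DTX EC replicate 2, with 2509 FPKM against 915 and 1079 FPKM, and Lin- replicate 3, with an erythroid marker sum of 60096 FPKM against 1169 and 1296 FPKM. Esm1+ EC replicates 1 and 2 were far closer to each other than to replicate 3 (mean chi-square per gene 1.39, against 27.0 and 28.5) and were kept as separate libraries. Counting error alone gives a value near 1, and the other pairs of libraries of one group in this series had 3.13 to 182. The labels do not say whether Esm1+ EC replicates 1 and 2 came from separate samples, and this was not tested. P-values that involve Esm1+ EC treat them as separate. Counts of called genes are also given with both averaged into 1 library. In bulk samples fewer cells of a type and less RNA per cell cannot be told apart. For this reason levels are also given as a percentage of Cdh5, the gene of VE-cadherin at endothelial cell junctions, in the same library. The labels do not say whether replicates came from separate mice, so p-values measure the spread between these libraries, which may be technical.

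In most endothelial groups the matrix RNA was led by the same pair of genes, Sparc, a collagen-binding matricellular protein, and Igfbp7, a binding protein found in vessel walls. Sparc was the highest of the 35 genes in irradiated bone EC (1923 FPKM), bone EC (981 FPKM), Vav1 control EC (729 FPKM), Apln+ EC (3397 FPKM) and Esm1+ EC (1381 FPKM). Igfbp7 was the highest in Vav1 DTX EC (1052 FPKM), diaphysis EC (1206 FPKM) and 9Gy1D EC (1193 FPKM). Sparc and Igfbp7 were within their spread of each other in 9Gy1D EC (1162 ± 181 FPKM for Sparc and 1193 ± 357 FPKM for Igfbp7, SD, n = 3). The top 3 genes made up 58.1% of the summed level of the set in 9Gy1D EC and 80.1% in Apln+ EC, the lowest and highest shares among endothelial groups. Whole marrow differed: 1 gene, Thbs1, which encodes a thrombospondin stored in platelets, made up 83.6% of the summed level there. Megakaryocyte and platelet markers summed to 14.4 to 28.6 FPKM in BMC, and which cells gave the Thbs1 RNA was not tested. Of the 35 genes 29 to 33 averaged at least 1 FPKM in the endothelial groups, against 11 in BMC. Lama3, a laminin chain best known from epithelium, stayed below 1 FPKM on average in all 11 groups.

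**Figure D1:**
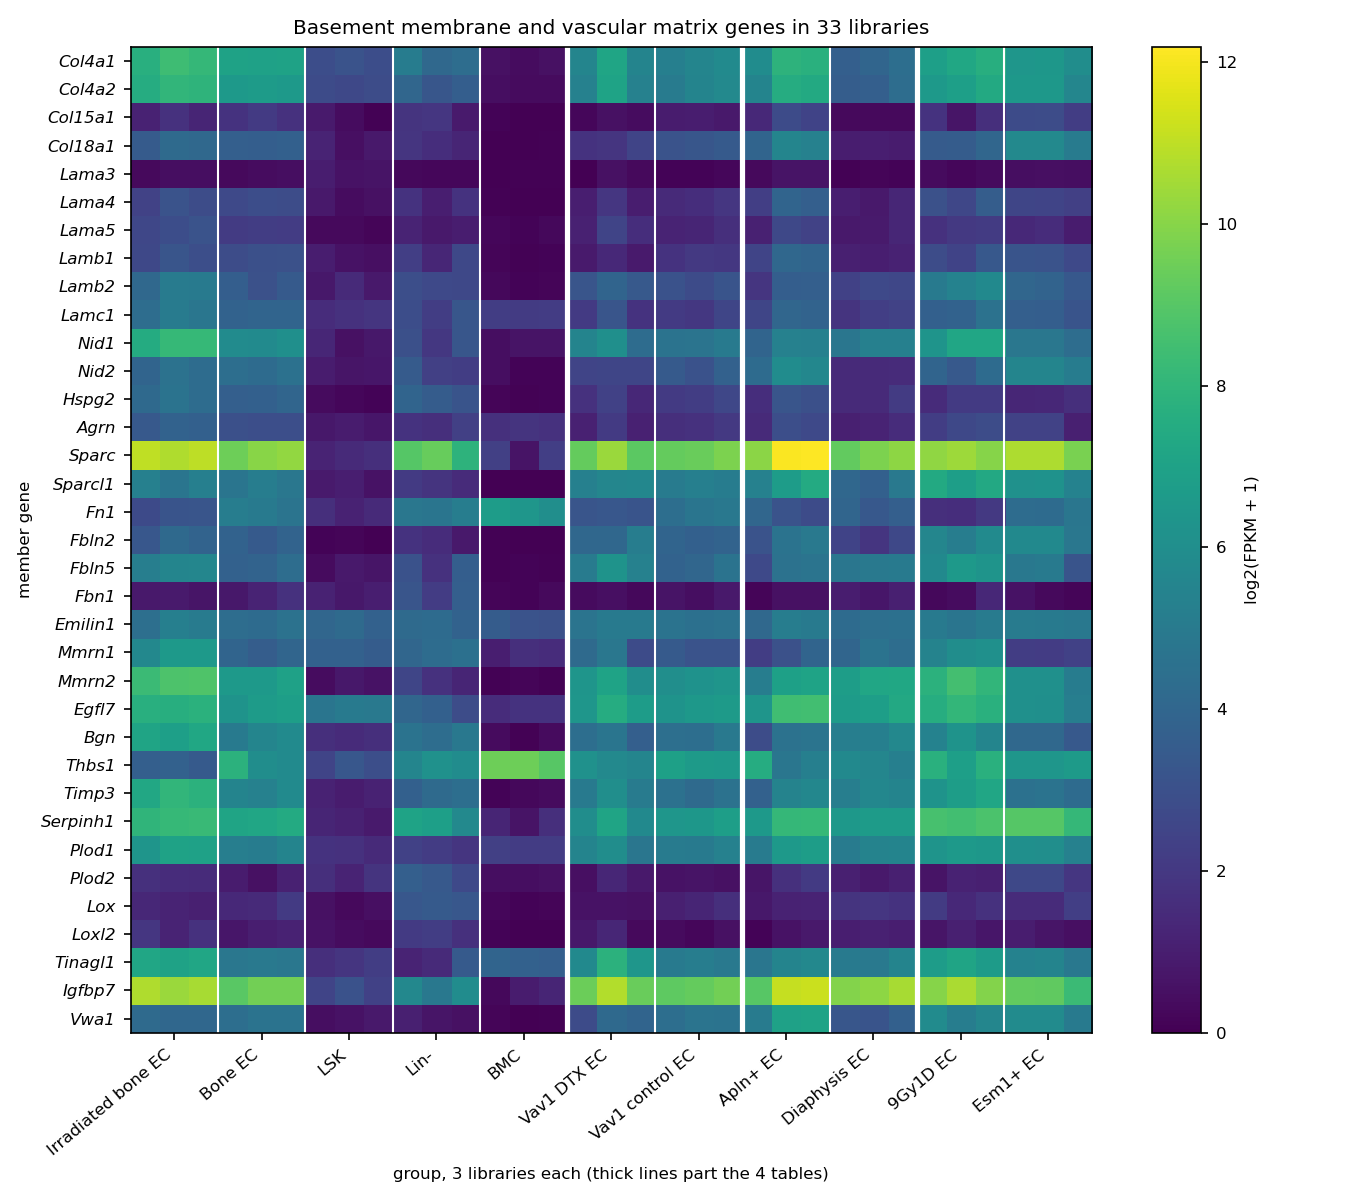
Level of each of the 35 genes, as log2(FPKM + 1), in each of the 33 libraries, grouped by cell group; colour gives the level. Sparc and Igfbp7 are high in every endothelial library, Thbs1 and Fn1 are the genes that stand out in whole marrow, and Lama3 is low throughout; the tables behind the groups were normalized separately.

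Irradiation of the mice was followed by higher levels of most of these genes in the sorted bone endothelium. Of 33 genes tested, 20 rose and 3 fell in irradiated bone EC relative to bone EC (limma on log2(FPKM + 1), two-sided, Benjamini-Hochberg adjusted p below 0.05 over 13044 genes). Over all genes tested 41.9% were called, 22.5% higher and 19.4% lower. The median log2 difference was 0.72 among the tested genes of the set and 0.06 over all genes. Levels in the 3 irradiated and the 3 untreated libraries did not overlap for 26 of the 35 genes, against 54.2% of all genes tested. Here and below such counts include genes of the set that were not tested, whereas the share over all genes covers tested genes only. The summed level of the 35 genes was 5854 to 6381 FPKM in irradiated bone EC and 2448 to 3133 FPKM in bone EC.

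The nidogens, which bridge laminin and collagen, came apart. Nid1 had 179, 289 and 286 FPKM in irradiated bone EC, against 58.1, 56.2 and 65.5 FPKM in bone EC. Nid2 had 14.0, 23.0 and 18.5 FPKM in irradiated bone EC, against 20, 18.4 and 22.1 FPKM in bone EC. The groups were fully separate for Nid1 and overlapped for Nid2. Nid1 rose by a log2 difference of 2.02 ± 0.21 (SE, limma adjusted p = 0.00052), and Nid2 gave a log2 difference of -0.14 ± 0.19 (limma adjusted p = 0.59). The ratio of Nid1 to Nid2 within a library averaged 13.6 ± 1.59 in irradiated bone EC and 2.97 ± 0.0772 in bone EC (SD, n = 3 each).

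The collagen network chains rose together. Col4a1 had 203, 341 and 275 FPKM in irradiated bone EC, against 131, 125 and 129 FPKM in bone EC. Col4a2 had 184, 256 and 239 FPKM in irradiated bone EC, against 94.2, 103 and 97.1 FPKM in bone EC. Both were higher in all irradiated libraries, with log2 differences of 1.05 for Col4a1 and 1.19 for Col4a2 (limma adjusted p = 0.0054 and 0.0014). Col18a1, whose protein is cleaved to the angiogenesis inhibitor endostatin, averaged 14.8 ± 3.85 FPKM in irradiated bone EC and 11.9 ± 0.5 FPKM in bone EC, and its groups overlapped (limma adjusted p = 0.34). Col15a1, the related multiplexin, averaged 1.65 ± 0.575 FPKM in irradiated bone EC and 2.68 ± 0.498 FPKM in bone EC (limma adjusted p = 0.095).

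Among the laminins the chains of one type did not move alike. Lamb2, a beta chain, averaged 26.7 ± 8.81 FPKM in irradiated bone EC and 9.56 ± 2.22 FPKM in bone EC (log2 difference 1.36, limma adjusted p = 0.0083). Lamb1, the other beta chain, averaged 6.66 ± 1.44 FPKM in irradiated bone EC and 6.73 ± 0.509 FPKM in bone EC (limma adjusted p = 0.91). The same held for the alpha chains: Lama5 rose (log2 difference 0.69, limma adjusted p = 0.016), while Lama4 averaged 6.02 ± 1.69 FPKM in irradiated bone EC and 6.05 ± 0.508 FPKM in bone EC (limma adjusted p = 0.91). Lamc1, the gamma chain that most vascular laminins share, rose by a log2 difference of 0.85 (limma adjusted p = 0.011). The proteoglycans Agrn and Hspg2 rose by log2 differences of 0.72 and 0.58 (limma adjusted p = 0.0079 and 0.029). Hspg2 and Lama5 are the weaker of these calls: Hspg2 passed in 2 and Lama5 in 4 of the 6 fits that each left out 1 library. Lama3 was below the level needed for a test.

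The largest rises were in glycoproteins and an inhibitor of the vessel wall. Mmrn1, a multimerin stored in platelets and endothelial cells, had 50.5, 91.8 and 95.9 FPKM in irradiated bone EC, against 14.3, 10.9 and 14.6 FPKM in bone EC. Tinagl1, a glycoprotein of basement membranes, had 147, 128 and 146 FPKM in irradiated bone EC, against 27.8, 29.3 and 27.8 FPKM in bone EC. Timp3, a metalloproteinase inhibitor bound to the matrix, had 156, 261 and 230 FPKM in irradiated bone EC, against 44.0, 39.3 and 55.5 FPKM in bone EC. In each of these genes all irradiated libraries lay above all untreated ones. The log2 differences were 2.45 ± 0.26 for Mmrn1, 2.27 ± 0.12 for Tinagl1 and 2.18 ± 0.23 for Timp3 (SE, limma adjusted p = 0.00056, 0.00016 and 0.00052). Mmrn2, the endothelial multimerin, rose by 1.93, Bgn, a small leucine-rich proteoglycan, by 1.65, Fbln5, an elastin-binding fibulin, by 1.46, Igfbp7 by 1.14, Egfl7, a factor secreted by endothelium, by 1.11, and Sparc by 0.99 on the log2 scale (limma adjusted p = 0.014 or below). Sparcl1, a relative of Sparc, Fbln2, a fibulin, and Emilin1, a protein of elastic fibres, did not pass the test (limma adjusted p = 0.47, 0.88 and 0.1), and Fbn1, the main chain of fibrillin microfibrils, was not tested.

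Fn1, which encodes fibronectin, and Thbs1 were the genes that fell most. Fn1 had 5.77, 8.07 and 8.3 FPKM in irradiated bone EC, against 35.4, 30.0 and 24.9 FPKM in bone EC (log2 difference -1.89 ± 0.19, limma adjusted p = 0.00045). Thbs1 had 12.1, 12.8 and 9.87 FPKM in irradiated bone EC, against 225, 60.9 and 56.0 FPKM in bone EC (log2 difference -2.89 ± 0.5, limma adjusted p = 0.0036). No irradiated library reached the lowest untreated one for either gene, and bone EC replicate 1 was far above the other untreated libraries for Thbs1. Both passed in all 6 fits that left out 1 library. Markers of blood cells were lower in the same libraries: all 7 leukocyte markers were called lower, with summed levels of 467 to 967 FPKM in irradiated bone EC and 2529 to 2976 FPKM in bone EC, and 6 of 6 tested megakaryocyte and platelet markers were called lower, with sums of 17.8 to 55.7 FPKM in irradiated bone EC (Gp6 and Treml1 at 0) and 112 to 169 FPKM in bone EC. All 7 neutrophil, 5 erythroid and 5 B lymphoid markers and 5 of 8 monocyte and macrophage markers were called lower as well, and 13 of 16 pan-endothelial markers were called higher. In whole marrow, a blood cell population, Thbs1 averaged 650.0 FPKM and Fn1 84.0 FPKM; the part of blood cell RNA in these falls was not tested. Vwa1, a von Willebrand factor A domain protein of basement membranes, fell by 0.43 on the log2 scale (limma adjusted p = 0.031) and passed in 2 of the 6 fits that left out 1 library.

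Of the proteins that process collagen, the chaperone Serpinh1 averaged 279 ± 29.2 FPKM in irradiated bone EC and 153 ± 20.5 FPKM in bone EC (log2 difference 0.86, limma adjusted p = 0.0049). Plod1, a lysyl hydroxylase, averaged 111 ± 26.3 FPKM in irradiated bone EC and 38.0 ± 5.45 FPKM in bone EC (log2 difference 1.49, limma adjusted p = 0.0016). Plod2, its relative, rose by 0.71 on the log2 scale at a low level (limma adjusted p = 0.023) and passed in 2 of the 6 fits. The cross-linking oxidases Lox and Loxl2 did not pass the test; Lox averaged 1.34 ± 0.237 FPKM in irradiated bone EC and 2.17 ± 0.853 FPKM in bone EC.

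**Figure D2:**
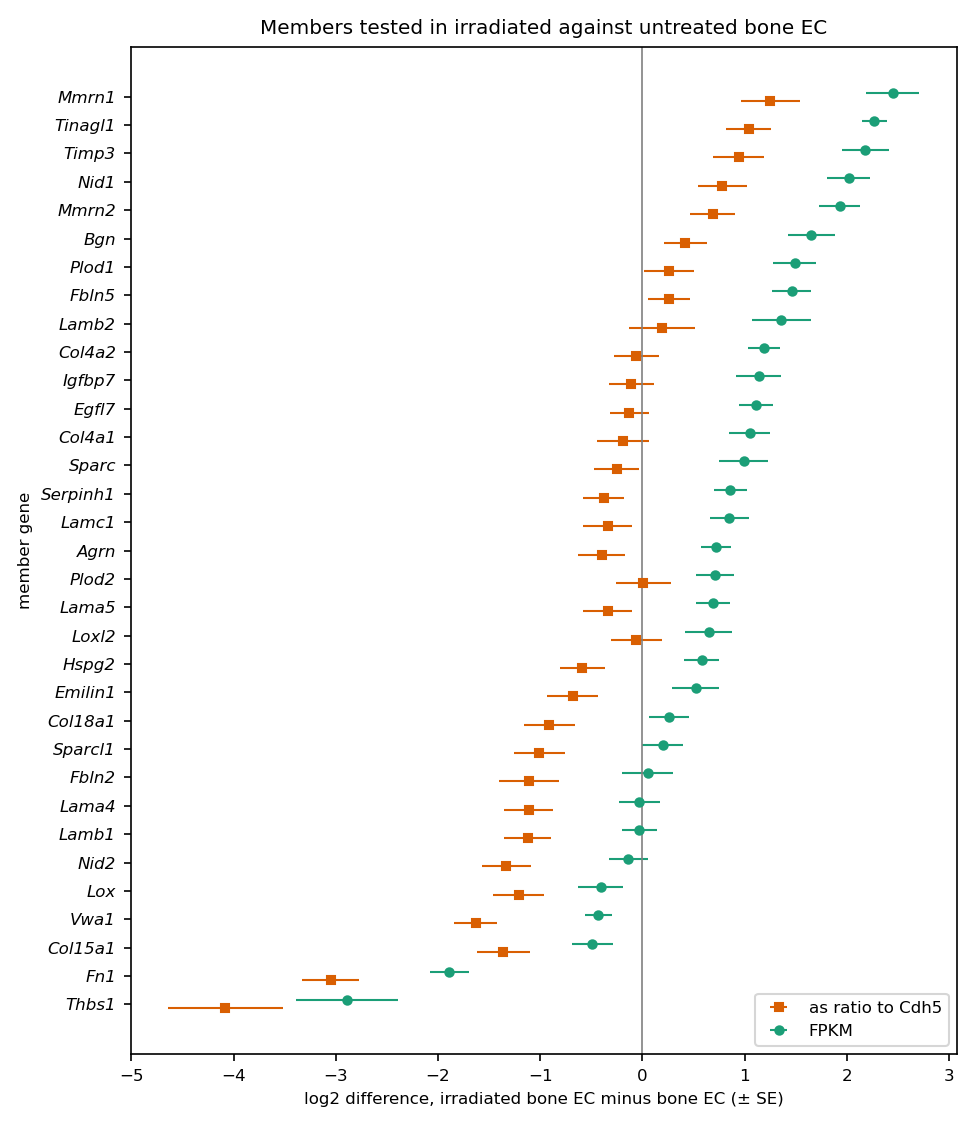
Log2 difference of irradiated bone EC minus bone EC for the tested genes of the set, on FPKM and after scaling each library to Cdh5; points are limma estimates and bars their standard errors. Mmrn1, Tinagl1, Timp3, Nid1 and Mmrn2 lie to the right of 0 on both scales and Fn1, Thbs1 and Vwa1 to the left on both, while Col4a1 and Col4a2 move to near 0 once scaled.

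Cdh5 itself averaged 191 ± 10.3 FPKM in irradiated bone EC and 81.5 ± 15.5 FPKM in bone EC (log2 difference 1.24, limma adjusted p = 0.0014). Relative to Cdh5, 5 of the 33 tested genes rose and 13 fell. On this scale 70.9% of all genes were called, 2.47% higher and 68.4% lower, and the median log2 difference was -0.34 in the set and -0.98 over all genes. Groups did not overlap for 24 of the 35 genes, against 77.1% of all genes tested. The 5 that rose were Mmrn1, Tinagl1, Timp3, Nid1 and Mmrn2. Mmrn1 stood at 28%, 47.4% and 47.9% of Cdh5 in irradiated bone EC, against 22.3%, 12.6% and 15.6% in bone EC (log2 difference 1.25, limma adjusted p = 0.0036). Tinagl1 stood at 81.8%, 65.8% and 72.7% of Cdh5 in irradiated bone EC, against 43.4%, 33.7% and 29.7% in bone EC (log2 difference 1.04, limma adjusted p = 0.0022). Nid1 and Mmrn2 passed in 3 of the 6 fits that left out 1 library, and Mmrn1, Tinagl1 and Timp3 in all 6. Col4a1 and Col4a2 kept close to Cdh5: Col4a1 averaged 142% ± 31.7 of Cdh5 in irradiated bone EC and 162% ± 36.6 in bone EC (log2 difference -0.19, limma adjusted p = 0.51).

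The genes that fell against Cdh5 included Nid2, Lama4, Lamb1, Col15a1 and Col18a1. Nid2 stood at 7.75%, 11.9% and 9.25% of Cdh5 in irradiated bone EC, against 31.3%, 21.2% and 23.6% in bone EC (log2 difference -1.33, limma adjusted p = 0.001). Lamb1 stood at 2.93%, 4.2% and 3.28% of Cdh5 in irradiated bone EC, against 9.6%, 8.02% and 7.56% in bone EC (log2 difference -1.12, limma adjusted p = 0.0019). In both, every irradiated library lay below every untreated one. Vwa1 averaged 8.64% ± 0.939 of Cdh5 in irradiated bone EC and 28.2% ± 3.01 in bone EC (log2 difference -1.63, limma adjusted p = 0.00016). The other genes called lower on this scale were Hspg2, Sparcl1, Fn1, Fbln2, Emilin1, Thbs1 and Lox, of which Hspg2 and Emilin1 passed in 2 of the 6 fits that left out 1 library. Mesenchymal stromal markers summed to 72.5 to 190.0 FPKM in irradiated bone EC and 49.7 to 125 FPKM in bone EC, and mural markers to 13.8 to 16.3 FPKM in irradiated bone EC and 14.8 to 16.3 FPKM in bone EC.

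In the Vav1 pair fewer genes of the set were called. Of 30 genes tested, 3 rose and 6 fell in Vav1 DTX EC relative to Vav1 control EC, where 26.3% of all genes were called, 11.3% higher and 15.0% lower (limma). The median log2 difference was 0.29 in the set and 0.03 over all genes, and the groups did not overlap for 15 of the 35 genes, against 46.3% of all genes tested. The shares of the set called and not overlapping were thus near those of all genes. Fn1 had 8.19, 8.93 and 8.1 FPKM in Vav1 DTX EC, against 20.3, 25.7 and 28.5 FPKM in Vav1 control EC. Col18a1 had 2.47, 2.68 and 4.58 FPKM in Vav1 DTX EC, against 7.58, 8.55 and 9.77 FPKM in Vav1 control EC. The groups did not overlap for either gene, and these were the only genes of the set called in all 6 fits that left out 1 library. The log2 differences were -1.45 ± 0.15 for Fn1 and -1.21 ± 0.21 for Col18a1 (SE, limma adjusted p = 0.00083 and 0.0068).

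Thbs1, Nid2, Lamb1 and Lox were the other genes that fell in Vav1 DTX EC. Lox was below 1 FPKM in every Vav1 DTX library and was tested only through the control group, so its direction was fixed in advance. Nid2 had 4.69, 4.84 and 4.92 FPKM in Vav1 DTX EC, against 9.8, 7.36 and 12.6 FPKM in Vav1 control EC (log2 difference -0.88, limma adjusted p = 0.016). Lamb1 averaged 1.1 ± 0.448 FPKM in Vav1 DTX EC and 2.8 ± 0.278 FPKM in Vav1 control EC (log2 difference -0.87, limma adjusted p = 0.013). Thbs1 had 70.4, 51.7 and 45.8 FPKM in Vav1 DTX EC, against 120, 100 and 91.7 FPKM in Vav1 control EC (log2 difference -0.89, limma adjusted p = 0.014). Each of these genes was lower in all Vav1 DTX libraries. Fbln5, Tinagl1 and Timp3 rose, by log2 differences of 1.39, 1.64 and 0.92 (limma adjusted p = 0.023, 0.04 and 0.048). They passed in 4, 2 and 1 of the 6 fits that left out 1 library, in the same order. Tinagl1 had 54.2, 226 and 84.5 FPKM in Vav1 DTX EC, against 31.7, 34.3 and 29.6 FPKM in Vav1 control EC, so the rise was largest in replicate 2. Without that library 14 genes were called, 3 higher and 11 lower, with 41.0% of all genes called; Lama4, Hspg2, Agrn, Serpinh1 and Vwa1 joined those that fell. Leaving out a control library left 3 or 4 calls.

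Type IV collagen was not called in the Vav1 pair. Col4a1 had 45.7, 142 and 44.3 FPKM in Vav1 DTX EC, against 37.6, 45.4 and 56.6 FPKM in Vav1 control EC, so that replicate 2 stood alone (limma adjusted p = 0.42). As a percentage of Cdh5 the same gene stood at 199%, 254% and 203% in Vav1 DTX EC, against 207%, 175% and 198% in Vav1 control EC. Relative to Cdh5, 4 of the 30 tested genes were called, namely Col18a1, Lamb1, Fn1 and Lox, which fell, where 9.99% of all genes were called, 0.977% higher and 9.01% lower. The share of the set called was near that of all genes here as well. The libraries did not overlap for 15 of the 35 genes on this scale, against 23.9% of all genes tested. Fn1 averaged 29.6% ± 11.9 of Cdh5 in Vav1 DTX EC and 104% ± 7.01 in Vav1 control EC (log2 difference -1.77, limma adjusted p = 0.013). These ratio calls rest on few libraries: the count was 7, 2 higher and 5 lower, without Vav1 DTX EC replicate 2 and at most 2 without any 1 of the other libraries, and Fn1 passed in 3 of the 6 fits. Leukocyte marker sums were 1735 to 2597 FPKM in Vav1 DTX EC and 4319 to 4539 FPKM in Vav1 control EC, with 5 of 7 markers called lower, and megakaryocyte and platelet sums were 37.4 to 75.2 FPKM in Vav1 DTX EC and 121 to 427 FPKM in Vav1 control EC, with 6 of 7 tested called lower. All 8 monocyte and macrophage, 5 erythroid and 5 B lymphoid markers were called lower too. Mesenchymal stromal markers summed to 17.8 to 35 FPKM in Vav1 DTX EC and 69.3 to 103 FPKM in Vav1 control EC, with 4 of 8 tested called lower on FPKM and 6 of 8 relative to Cdh5. Osteoblast markers summed to 7.88 to 21.4 FPKM in Vav1 DTX EC and 74.3 to 129 FPKM in Vav1 control EC, with 2 of 2 tested called lower on both scales. The part of these cells in the falls was not tested.

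Apln+ endothelium, marked by a gene of tip cells and growing vessels, was set against endothelium of the femoral shaft. These groups differ in reporter line, tamoxifen and bone region at once, and the effects of these cannot be told apart. Of 33 genes tested, 8 rose and 1 fell in Apln+ EC, where 7.49% of all genes were called, 2.84% higher and 4.64% lower (limma). The median log2 difference was 0.8 in the set and 0.04 over all genes, and the groups did not overlap for 18 of the 35 genes, against 27.8% of all genes tested. The genes that rose were Col18a1, Nid2, Col4a1, Vwa1, Col4a2, Lamb1, Lama4 and Col15a1, and Lox fell (limma adjusted p = 0.04). Col15a1 was below 1 FPKM in every diaphysis library and was tested only through Apln+ EC, so its direction was fixed in advance.

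Col18a1 had 14.2, 46.1 and 40.3 FPKM in Apln+ EC, against 0.988, 1.01 and 0.9 FPKM in diaphysis EC. Nid2 had 18.4, 59.8 and 49.0 FPKM in Apln+ EC, against 1.78, 1.76 and 1.79 FPKM in diaphysis EC. Col4a1 had 59.4, 236 and 213 FPKM in Apln+ EC, against 11.8, 14.6 and 20.1 FPKM in diaphysis EC. All Apln+ libraries lay far above the shaft libraries for these genes, and replicate 1 was the lowest of the Apln+ libraries each time. The log2 differences were 3.98 ± 0.42 for Col18a1, 3.81 ± 0.42 for Nid2 and 3.17 ± 0.54 for Col4a1 (SE, limma adjusted p = 0.0036, 0.004 and 0.019). Vwa1 rose by 2.99, Col4a2 by 2.93, Lamb1 by 2.4, Lama4 by 2.25 and Col15a1 by 1.91 on the log2 scale (limma adjusted p = 0.032 or below).

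Here the partner genes separated in the other direction from the irradiated pair. Nid1 had 14.0, 39.8 and 39.1 FPKM in Apln+ EC, against 26.3, 38.1 and 38.2 FPKM in diaphysis EC, which overlapped (log2 difference -0.26, limma adjusted p = 0.8). The Nid1 to Nid2 ratio averaged 0.742 ± 0.0679 in Apln+ EC and 19.3 ± 3.9 in diaphysis EC (SD, n = 3 each). Lamb2 averaged 8.59 ± 5.17 FPKM in Apln+ EC and 4.91 ± 0.727 FPKM in diaphysis EC (limma adjusted p = 0.65), and the Lamb1 to Lamb2 ratio averaged 1.44 ± 0.28 in Apln+ EC and 0.235 ± 0.0451 in diaphysis EC.

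The spread between Apln+ libraries limits this comparison. Only Col18a1 and Nid2 were called in all 6 fits that left out 1 library; the other 7 genes were called in 1 of the 6. Without Apln+ EC replicate 1, 25 genes were called, 22 higher and 3 lower, with 33.6% of all genes called. In that fit those that rose included Sparc, Sparcl1, Serpinh1, Plod1, Lamc1, Lama5, Agrn and Hspg2, and Fn1 and Bgn joined Lox. Without any 1 of the other libraries the count was 2 or 3. Chondrocyte markers summed to 26.7 to 142 FPKM in Apln+ EC and to 0.0385 to 0.404 FPKM in diaphysis EC, where Col2a1, Acan, Col9a1 and Matn3 were at 0. Osteoblast markers summed to 65.2 to 203 FPKM in Apln+ EC and 257 to 325 FPKM in diaphysis EC, with 1 of 3 tested called higher. Mesenchymal stromal markers summed to 57.2 to 87.8 FPKM in Apln+ EC and 154 to 173 FPKM in diaphysis EC, with 2 of 8 tested called higher and 3 lower. Of 8 monocyte and macrophage markers 4 were called lower. The part of these cells in the result was not tested.

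Relative to Cdh5 the Apln+ libraries drew together. The median coefficient of variation of the genes of the set at 1 FPKM or more was 55.7% on FPKM and 15.1% as a ratio to Cdh5. Cdh5 had 14.2, 52.1 and 45.0 FPKM in Apln+ EC, against 23.0, 25.9 and 34.0 FPKM in diaphysis EC. The same 8 genes rose on this scale and Lox was not called, where 2.99% of all genes were called, 1.25% higher and 1.74% lower, and the median log2 difference was 0.57 in the set and -0.14 over all genes. Col18a1 stood at 100%, 88.6% and 89.6% of Cdh5 in Apln+ EC, against 4.29%, 3.9% and 2.64% in diaphysis EC (log2 difference 3.85, limma adjusted p = 0.0051). Nid2 stood at 130%, 115% and 109% of Cdh5 in Apln+ EC, against 7.74%, 6.79% and 5.25% in diaphysis EC (log2 difference 3.65, limma adjusted p = 0.0059). Bgn stood at 43.7%, 44.0% and 54.5% of Cdh5 in Apln+ EC, against 158%, 145% and 150% in diaphysis EC, fully apart but not past the test (limma adjusted p = 0.079). The groups did not overlap for 28 of the 35 genes on this scale, 19 higher and 9 lower, against 13.8% of all genes tested. Without Apln+ EC replicate 1 the count of calls was 26, 17 higher and 9 lower, with 59.9% of all genes called, whereas it was at most 1 without a diaphysis library, 6 without Apln+ EC replicate 2 and 4 without replicate 3; Col18a1 passed in 4 and Nid2 in 3 of the 6 fits.

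**Figure D3:**
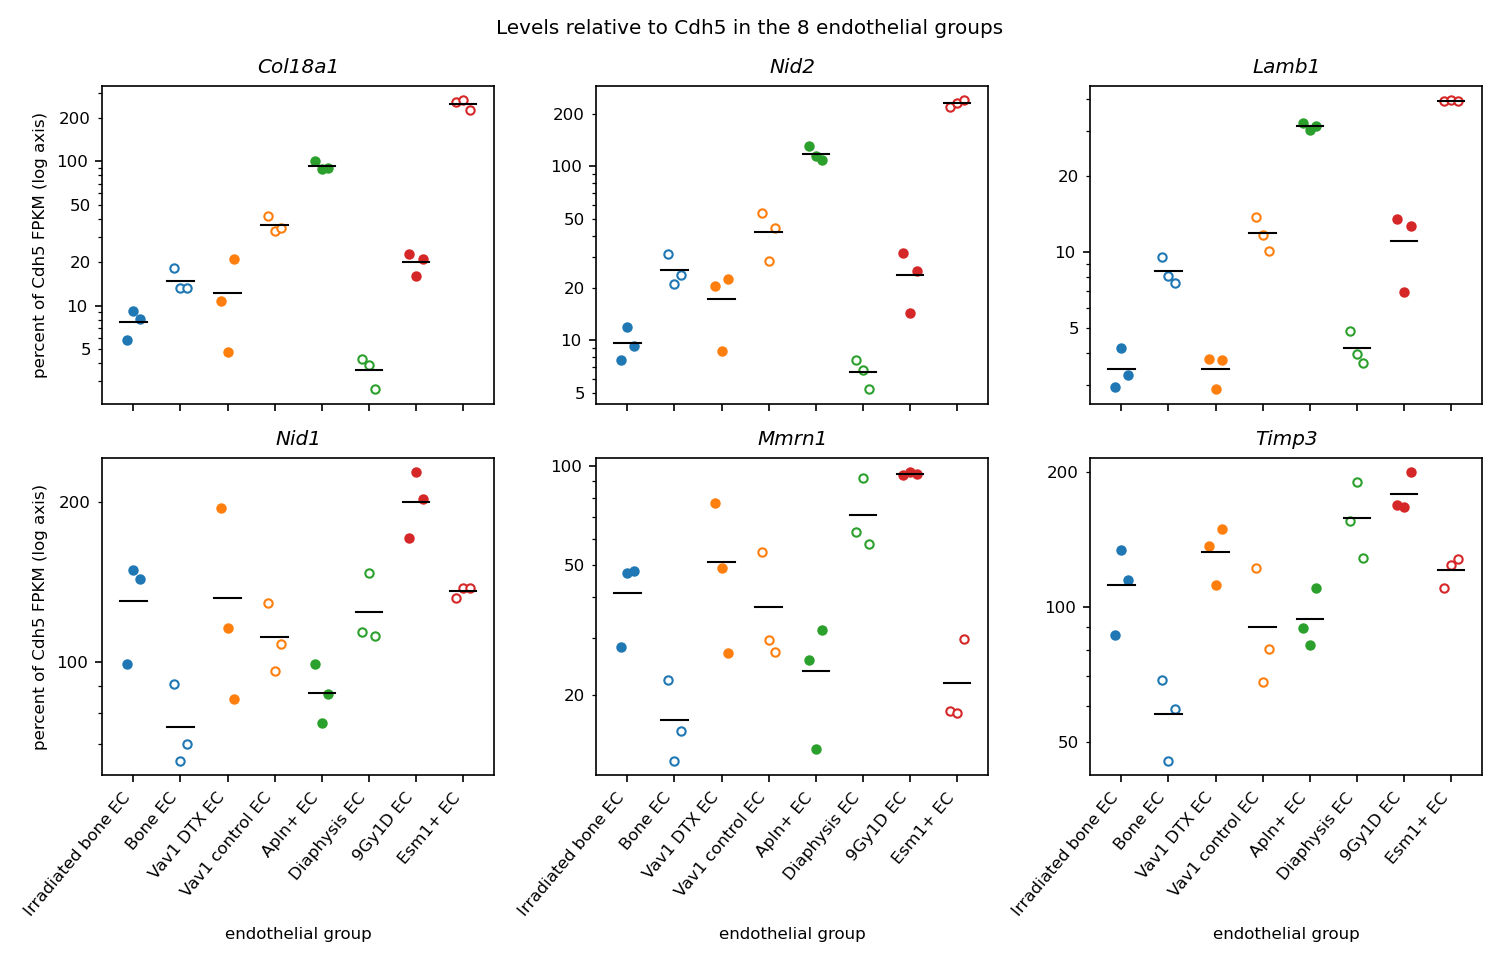
Level of Col18a1, Nid2, Lamb1, Nid1, Mmrn1 and Timp3 as a percentage of Cdh5 in the same library, on log axes, for the 8 endothelial groups; points are libraries and lines group means. Col18a1 lies at 88.6% to 100% of Cdh5 in Apln+ EC and at 2.64% to 4.29% in diaphysis EC, and Nid2 and Lamb1 separate the same groups.

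The last pair of one table was 9Gy1D EC and Esm1+ EC, neither of which is a control of the other. They differ in irradiation, reporter line and tamoxifen, which cannot be told apart. Of 32 genes tested, 15 rose and 5 fell in 9Gy1D EC relative to Esm1+ EC, where 43.7% of all genes were called, 20.6% higher and 23.1% lower (limma). The median log2 difference was 0.62 in the set and 0.0 over all genes, and the groups did not overlap for 24 of the 35 genes, against 57.3% of all genes tested.

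Mmrn1 had 42.5, 62.7 and 69.3 FPKM in 9Gy1D EC, against 3.68, 3.45 and 4.2 FPKM in Esm1+ EC. Fn1 had 2.09, 2.01 and 3.05 FPKM in 9Gy1D EC, against 18.6, 18.1 and 26.2 FPKM in Esm1+ EC. Both genes separated the groups without overlap, in opposite directions. The log2 differences were 3.6 ± 0.2 for Mmrn1 and -2.69 ± 0.21 for Fn1 (SE, limma adjusted p = 4.6e-05 and 0.00016). Mmrn2, Timp3, Nid1 and Egfl7 rose by 2.34, 2.26, 2.25 and 2.0, and Fbln5, Bgn, Lamb2 and Tinagl1 by 1.9, 1.87, 1.64 and 1.6 on the log2 scale (limma adjusted p = 0.016 or below). The smaller rises were in Sparcl1, Igfbp7, Col4a1, Thbs1, Lama5 and Plod1. Of the 15, Fbln5, Thbs1, Lama5, Igfbp7 and Plod1 were lost in at least 1 fit without a library.

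Besides Fn1, the genes that fell were Col18a1, Nid2, Plod2 and Col15a1. Col18a1 had 10.3, 10.5 and 15.3 FPKM in 9Gy1D EC, against 53.0, 51.7 and 32.1 FPKM in Esm1+ EC (log2 difference -1.82, limma adjusted p = 0.0012). Nid2 had 14.2, 9.41 and 18.4 FPKM in 9Gy1D EC, against 45.0, 45.1 and 33.7 FPKM in Esm1+ EC (log2 difference -1.53, limma adjusted p = 0.0025). Plod2 averaged 0.971 ± 0.345 FPKM in 9Gy1D EC and 4.46 ± 1.47 FPKM in Esm1+ EC (log2 difference -1.45, limma adjusted p = 0.0044). Esm1+ replicate 3 was the nearest to the 9Gy1D libraries for Col18a1, Nid2 and Plod2. With Esm1+ replicates 1 and 2 averaged into 1 library, an alternative chosen after seeing the data, 12 genes rose and 4 fell, with 32.6% of all genes called.

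Other cell markers also differed between these groups. Chondrocyte markers summed to 1.11 to 7.9 FPKM in 9Gy1D EC (Acan at 0) and to 946 to 2062 FPKM in Esm1+ EC, with all 6 called lower. Megakaryocyte and platelet markers summed to 57.8 to 765 FPKM in 9Gy1D EC and 15.6 to 33.9 FPKM in Esm1+ EC (Gp6 at 0), with 4 of 6 called higher. Mural markers summed to 46.7 to 62.2 FPKM in 9Gy1D EC and 15.2 to 16.3 FPKM in Esm1+ EC, with 3 of 3 tested called higher. Pan-endothelial markers summed to 1869 to 2501 FPKM in 9Gy1D EC and 590.0 to 1060.0 FPKM in Esm1+ EC, with 13 of 16 called higher. Leukocyte markers summed to 1536 to 2550.0 FPKM in 9Gy1D EC and 3478 to 3762 FPKM in Esm1+ EC, with 6 of 7 called lower. Of the other blood cell lists 5 of 7 neutrophil, 4 of 5 erythroid, 5 of 5 B lymphoid and 4 of 8 monocyte and macrophage markers were called lower, and 3 of the last were called higher. Osteoblast markers summed to 36.7 to 168 FPKM in 9Gy1D EC and 233 to 500.0 FPKM in Esm1+ EC, with 4 of 4 tested called lower, and of 8 tested mesenchymal stromal markers 2 were called higher and 2 lower. The part of these cells in the differences, the fall of Fn1 among them, was not tested. Thbs1 had 211, 116 and 213 FPKM in 9Gy1D EC, against 83.7, 83.3 and 99.7 FPKM in Esm1+ EC.

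Relative to Cdh5, which averaged 61.2 ± 14.5 FPKM in 9Gy1D EC and 18.1 ± 3.48 FPKM in Esm1+ EC, 1 gene rose and 18 fell. On this scale 82.6% of all genes were called, 3.36% higher and 79.3% lower, and the median log2 difference was -0.84 in the set and -1.49 over all genes. The libraries did not overlap for 25 of the 35 genes, against 84.6% of all genes tested. With Esm1+ replicates 1 and 2 averaged, 1 gene rose and 16 fell, with 80.5% of all genes called. Mmrn1 was the gene that rose, at 94.2%, 96.0% and 94.7% of Cdh5 in 9Gy1D EC, against 17.9%, 17.7% and 29.8% in Esm1+ EC (log2 difference 2.04, limma adjusted p = 8.9e-05). Col18a1 stood at 22.8%, 16.1% and 21.0% of Cdh5 in 9Gy1D EC, against 257%, 265% and 228% in Esm1+ EC (log2 difference -3.5, limma adjusted p = 2.7e-06). Fn1 gave a log2 difference of -4.2, Nid2 of -3.2, Plod2 of -2.7 and Col15a1 of -2.54 (limma adjusted p = 5.2e-05 or below). Serpinh1 averaged 671% ± 182 of Cdh5 in 9Gy1D EC and 2314% ± 297 in Esm1+ EC (log2 difference -1.81, limma adjusted p = 0.00041). Lamb2 kept the same relation to Cdh5 to within its spread, at 68.7% ± 4.63 in 9Gy1D EC and 70.4% ± 4.18 in Esm1+ EC (limma adjusted p = 0.91).

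Across the 8 endothelial groups the percentage of Cdh5 was highest in Esm1+ EC for 19 of the 35 genes, in Apln+ EC for 6, in diaphysis EC for 4, in 9Gy1D EC for 3, in Vav1 DTX EC for 2 and in Vav1 control EC for 1. It was lowest in irradiated bone EC for 17 genes, in bone EC for 8 and in diaphysis EC for 6. These are ranks of group means from tables that were normalized separately, and no test was made across tables. The ratio is formed within a library, but a group with little Cdh5 RNA of its own and much RNA of other cells also gives a high ratio.

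The ratios of partner genes within a library do not depend on the scaling of a table. Col4a1 to Col4a2 was the steadiest, with group means of 1.08 in Esm1+ EC to 1.31 in bone EC across the 8 endothelial groups, and 1.2 ± 0.224 in LSK and 1.92 ± 0.231 in Lin- (SD, n = 3 each). Nid1 to Nid2 spanned the widest range, with 13.6 ± 1.59 in irradiated bone EC, 2.97 ± 0.0772 in bone EC, 8.92 ± 4.88 in Vav1 DTX EC, 2.75 ± 0.551 in Vav1 control EC, 0.742 ± 0.0679 in Apln+ EC, 19.3 ± 3.9 in diaphysis EC, 9.77 ± 5.39 in 9Gy1D EC and 0.593 ± 0.0134 in Esm1+ EC. Within each of the 4 tables the libraries of the paired endothelial groups did not overlap for this ratio. Lamb1 to Lamb2 averaged 0.26 ± 0.0549 in irradiated bone EC and 0.738 ± 0.221 in bone EC, and 0.159 ± 0.0448 in 9Gy1D EC and 0.562 ± 0.0331 in Esm1+ EC. Lama4 to Lama5, given for groups with both chains at 1 FPKM or more in every library, averaged 0.954 ± 0.226 in irradiated bone EC and 1.73 ± 0.088 in bone EC. No test was made on these ratios, since 3 libraries against 3 cannot give an exact permutation p below 0.1.

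**Figure D4:**
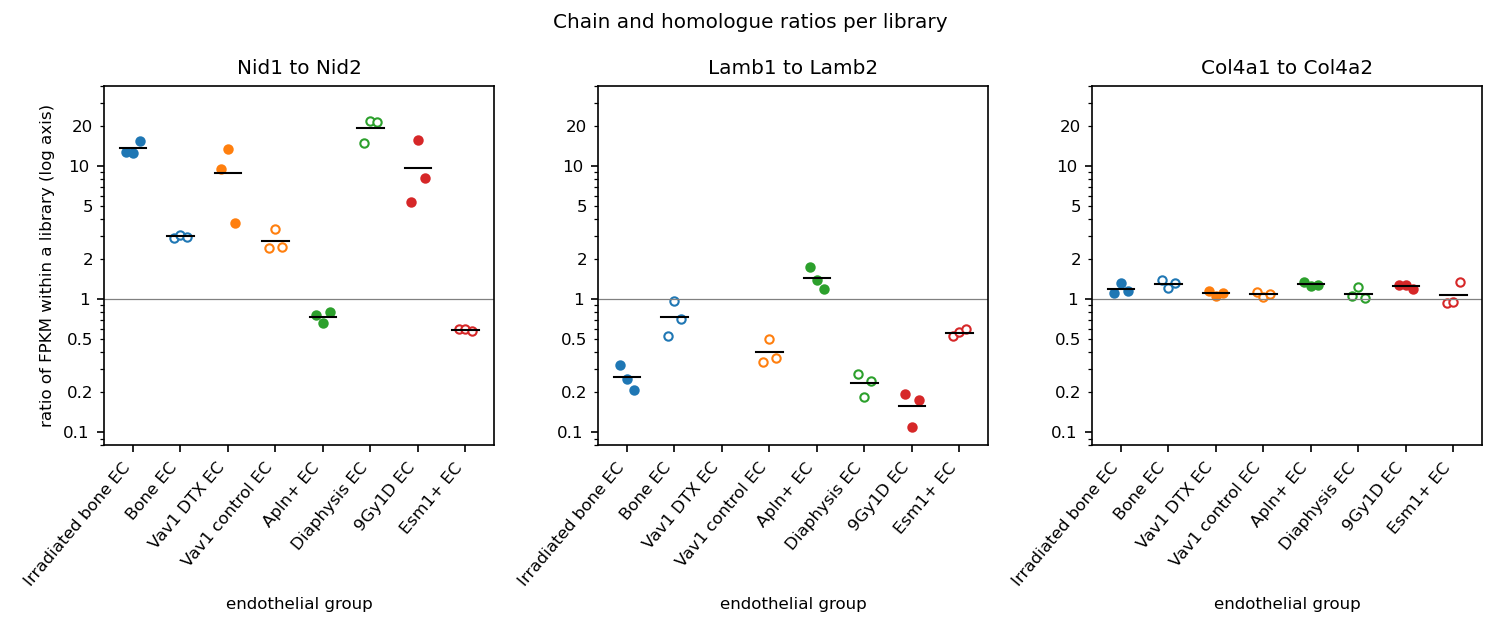
Ratio of the FPKM of paired genes within a library, on a log axis, for Nid1 to Nid2, Lamb1 to Lamb2 and Col4a1 to Col4a2 in the endothelial groups; points are libraries, lines are group means, and only groups with both genes at 1 FPKM or more in every library are drawn. The Col4a1 to Col4a2 ratio stays near 1 throughout, while Nid1 to Nid2 is high in irradiated bone EC and diaphysis EC and below 1 in Apln+ EC and Esm1+ EC.

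Bone EC were also set against LSK, Lin- and BMC of the same table, to see which of these genes were higher in the sorted endothelium. Lin- held little leukocyte marker RNA, with sums of 111 to 216 FPKM, against 2529 to 2976 FPKM in bone EC. It also held stromal and cartilage marker RNA, as given below. These comparisons share the bone EC libraries with each other and with the irradiated pair. Against LSK, 30 of 33 tested genes rose and 1 fell, where 60.1% of all genes were called, 29.5% higher and 30.6% lower (limma), with a median log2 difference of 3.52 in the set and -0.05 over all genes. The libraries of 33 of the 35 genes did not overlap, against 66.5% of all genes tested. Among tested genes, Col15a1, Lama4, Lama5, Lamb1, Nid2, Hspg2, Agrn, Fbln2, Fbln5, Mmrn2, Lox and Vwa1 were below 1 FPKM in every LSK library. They passed the filter only through bone EC. Their direction was therefore fixed in advance, and with it their part in the count of rises and in the lack of overlap. Sparc had 721, 1051 and 1170.0 FPKM in bone EC, against 1.3, 1.72 and 2.08 FPKM in LSK. Igfbp7 had 539, 762 and 769 FPKM in bone EC, against 4.68, 7.45 and 4.08 FPKM in LSK. The rises on the log2 scale were 8.49 for Sparc, 6.77 for Igfbp7, 6.16 for Serpinh1 and 5.04 for Nid1 (limma adjusted p = 6e-07 or below). Mmrn2, whose direction was fixed by the filter, gave a log2 difference of 6.09.

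Several genes of the set were also expressed in stem and progenitor cells. Mmrn1 averaged 13.3 ± 2.05 FPKM in bone EC and 12.2 ± 1.32 FPKM in LSK (limma adjusted p = 0.56). Egfl7 averaged 96.1 ± 18.2 FPKM in bone EC and 28.6 ± 2.58 FPKM in LSK, where it was the highest gene of the set (log2 difference 1.7, limma adjusted p = 6.1e-05). Emilin1 averaged 20.4 ± 2.67 FPKM in bone EC and 15.2 ± 2.21 FPKM in LSK (log2 difference 0.41, limma adjusted p = 0.046), a log2 difference that turned to -0.27 with values rescaled to TPM, and that of Mmrn1 was -0.57 on that scale, against 0.11 as deposited. Plod2 averaged 0.857 ± 0.362 FPKM in bone EC and 1.98 ± 0.64 FPKM in LSK, and was the gene that fell (limma adjusted p = 0.036). Emilin1 and Plod2 each passed in 2 of the 6 fits that left out 1 library. Egfl7 overlaps other genes in the annotation, Agpat2 among them, and whether counting used strand is not given in the sources used here.

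Against whole marrow, 29 of 31 tested genes rose and 2 fell in bone EC, where 70.4% of all genes were called, 35.8% higher and 34.6% lower, with a median log2 difference of 3.67 in the set and 0.0 over all genes. For all 35 genes the libraries did not overlap, against 74.7% of all genes tested. Most of the rises were in genes below 1 FPKM in every BMC library, which passed the filter only through bone EC. Their direction was therefore fixed in advance, and with it much of the count of rises and of the lack of overlap. The exceptions were Lamc1, Agrn, Sparc, Emilin1, Mmrn1, Egfl7, Serpinh1, Plod1, Tinagl1 and Igfbp7, which reached 1 FPKM in at least 1 BMC library. The libraries of BMC and Lin- were made with a stranded total RNA kit and those of bone EC and LSK with a full-length cDNA kit, so kit and cell type cannot be told apart in bone EC against BMC or Lin-. Igfbp7 had the largest rise, 8.59 on the log2 scale, with 690.0 ± 131 FPKM in bone EC and 0.839 ± 0.621 FPKM in BMC (limma adjusted p = 2.2e-07). Sparcl1 averaged 29.3 ± 5.2 FPKM in bone EC and was listed at 0 in all 3 BMC libraries. Thbs1 and Fn1 were the genes that fell. Thbs1 had 225, 60.9 and 56.0 FPKM in bone EC, against 715, 719 and 516 FPKM in BMC (log2 difference -2.79, limma adjusted p = 0.0015). Fn1 had 35.4, 30.0 and 24.9 FPKM in bone EC, against 105, 82.2 and 64.8 FPKM in BMC (log2 difference -1.44, limma adjusted p = 0.00042).

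Against lineage-negative cells, 22 of 34 tested genes rose and 4 fell in bone EC, where 66.6% of all genes were called, 35.8% higher and 30.8% lower, with a median log2 difference of 1.16 in the set and 0.07 over all genes. The libraries of 30 of the 35 genes did not overlap, against 72.0% of all genes tested. The 4 genes that fell were Fbn1, Plod2, Lox and Loxl2. Lox had 1.65, 1.7 and 3.15 FPKM in bone EC, against 8.92, 10.1 and 8.88 FPKM in Lin- (log2 difference -1.73, limma adjusted p = 0.00025). Plod2 had 0.916, 0.469 and 1.19 FPKM in bone EC, against 11.9, 9.5 and 5.47 FPKM in Lin- (log2 difference -2.38, limma adjusted p = 0.00023). Hspg2 averaged 12.8 ± 1.46 FPKM in bone EC and 10.9 ± 3.13 FPKM in Lin- (limma adjusted p = 0.36), and Fn1 averaged 30.1 ± 5.23 FPKM in bone EC and 29.3 ± 4.63 FPKM in Lin- (limma adjusted p = 0.88). Mesenchymal stromal markers summed to 49.7 to 125 FPKM in bone EC and to 888 to 3075 FPKM in Lin-, with 8 of 10 called lower, and chondrocyte markers to 0.906 to 2.27 FPKM in bone EC (Acan, Col9a1 and Matn3 at 0) and 311 to 897 FPKM in Lin-; their part in these levels was not tested.

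Lin- cells were also set against the whole marrow. Of 30 tested genes, 24 rose and 3 fell in Lin- relative to BMC, where 57.5% of all genes were called, 29.1% higher and 28.4% lower, with a median log2 difference of 2.3 in the set and 0.03 over all genes. The libraries of 32 of the 35 genes did not overlap, against 66.1% of all genes tested. Most of the rises were in genes below 1 FPKM in every BMC library, which passed the filter only through Lin-. This fixed their direction in advance, and with it much of the count of rises and of the lack of overlap. The exceptions were Sparc, Emilin1, Mmrn1, Egfl7, Serpinh1 and Igfbp7. Sparc had 499, 645 and 234 FPKM in Lin-, against 3.9, 0.584 and 3.83 FPKM in BMC (log2 difference 6.98, limma adjusted p = 9.1e-05). Serpinh1 had 132, 115 and 52.6 FPKM in Lin-, against 1.42, 0.538 and 2.13 FPKM in BMC (log2 difference 5.37, limma adjusted p = 7.9e-05). Replicate 3 was the lowest Lin- library for both. The summed level of the 35 genes overlapped between the groups, at 668 to 1074 FPKM in Lin- and 624 to 866 FPKM in BMC. Thbs1, Fn1 and Tinagl1 fell, Tinagl1 in 1 only of the 6 fits that left out 1 library. Thbs1 averaged 58.1 ± 12.3 FPKM in Lin- and 650.0 ± 116 FPKM in BMC (log2 difference -3.47, limma adjusted p = 3.8e-05). Megakaryocyte and platelet markers summed to 732 to 1262 FPKM in Lin- and 14.4 to 28.6 FPKM in BMC, with 8 of 8 called higher, so that Thbs1 and these markers moved in opposite directions here. Cdh5 averaged 6.89 ± 3.77 FPKM in Lin- and 2.29 ± 0.61 FPKM in BMC. All 10 mesenchymal stromal markers were called higher; their part in the rise of the matrix genes was not tested.

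A list of 67 further matrix genes, with other collagen and laminin chains, proteinases, inhibitors and integrin receptors, was followed in the same fits. In irradiated bone EC against bone EC, 21 of 44 tested rose and 8 fell, where 22.5% of all genes were called higher and 19.4% lower. Adamts1, a secreted metalloproteinase, averaged 104 ± 29.2 FPKM in irradiated bone EC and 17.9 ± 5.82 FPKM in bone EC (log2 difference 2.47, limma adjusted p = 0.00065). Tgm2, a transglutaminase that cross-links matrix, rose by 2.39 and Pxdn, the peroxidase that cross-links type IV collagen, by 1.96. Mmp9, a gelatinase abundant in neutrophils, averaged 22.5 ± 11.2 FPKM in irradiated bone EC and 297 ± 85.6 FPKM in bone EC and fell by 3.73, followed by Emilin2, which fell by 2.39, and the integrin chain Itgb3, which fell by 1.41. In Vav1 DTX EC against Vav1 control EC, 1 of 37 tested rose and 8 fell, where 26.3% of all genes were called, so that the share called was near that of all genes. The falls were led by Mmp9, which fell by 2.7, Tnc, which encodes tenascin C and fell by 2.31, and Mfap2, a microfibril protein, which fell by 1.53. In Apln+ EC against diaphysis EC, 2 of 43 rose, where 2.84% of all genes were called higher, the gelatinase Mmp2 by 3.08 and the inhibitor Timp2 by 1.34, and 4 fell, with Efemp1, a fibulin family member, down by a log2 difference of -2.37 and Tgm2 by -1.61. In 9Gy1D EC against Esm1+ EC, 13 of 44 rose and 6 fell, near the 43.7% called over all genes. The rises were led by the collagen-binding integrin chain Itga1 at 2.89, Adamts1 at 2.62 and Tgm2 at 2.47, and the falls by the glypican Gpc1 at -2.44, Mfap2 at -1.34 and Mmp9 at -1.14 (log2 differences, limma adjusted p below 0.05 for each gene named).

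The same list gave 32 rises and 1 fall of 43 tested in bone EC relative to LSK, 22 and 10 of 45 relative to Lin-, and 34 and 7 of 42 relative to BMC, where 60.1%, 66.6% and 70.4% of all genes were called in the same order. Mmp14, a membrane-bound proteinase, averaged 50.6 ± 4.6 FPKM in bone EC and 1.65 ± 0.746 FPKM in LSK (log2 difference 4.31, limma adjusted p = 1.4e-06), Mmp9 rose by 7.22, with all 7 neutrophil markers called higher in bone EC than in LSK and than in Lin-, and Ltbp4, which binds latent TGF-beta, rose by 3.63. Relative to Lin-, Mmp9, Ltbp4 and the integrin ligand Npnt rose by 5.0, 2.95 and 3.67, while Tnc, Itgb3 and Ltbp1 gave log2 differences of -3.16, -2.93 and -2.21. Relative to BMC, Npnt, Adamts1 and Ltbp4 rose (log2 differences 4.36, 4.18 and 4.06), while Gpc1, Emilin2 and Itgb3 gave -1.45, -1.08 and -1.07. Npnt averaged 19.8 ± 0.543 FPKM in bone EC and 0.0128 ± 0.0221 FPKM in BMC. It was thus tested only through bone EC, which fixed its direction in advance. How many genes of this kind the counts of this list hold was not determined. In Lin- relative to BMC 26 of 38 rose and 9 fell, where 57.5% of all genes were called, and the list summed to 455 to 499 FPKM in Lin- and 703 to 1090.0 FPKM in BMC. The rises were led by Tnc at 5.36, Mmp2 at 3.53 and Timp1 at 3.04, and the falls by Mmp9 at -5.88, with all 7 neutrophil markers called lower, Emilin2 at -1.52 and Timp2 at -1.5 (limma adjusted p = 0.0097 or below for each gene named against LSK, Lin- or BMC).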

How the data were processed

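Reads of 33 libraries had been processed by the authors into FPKM values per gene, deposited in 4 tables that were normalized separately. Per the submitters' processing notes the tools were bcl2fastq 2.19.1.403, TopHat2 2.1.1, HTSeq 0.6.1 and DESeq2 1.18.1 and the build mm10, with roles not stated. Per the labels' protocols BMC and Lin- libraries were made with a TruSeq Stranded Total RNA kit and the others with SMART-Seq v4 and Nextera XT. Each table held 38926 genes, of which 27 were left out because a name was repeated in one of the tables or missing from another, and 0 columns without a sample. Values of 32358 genes with any signal (100%) came out as whole reads, to within 0.005 of a read, once scaled by gene length and library; where several gene lengths were possible the shortest was taken, so totals are lower bounds. Adgre1 and P3h1 were found by older symbols.

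The members and lists were chosen with earlier results of these data known. Values were taken as log2(FPKM + 1), so differences of low genes are understated. A gene was tested where 3 or more of the 6 libraries compared reached 1 FPKM, by limma 3.58.1 (eBayes with trend, two-sided) in R 4.3.3, and called at a Benjamini-Hochberg adjusted p below 0.05 over all genes tested. A gene below 1 FPKM in every library of 1 group passed this filter only through the other group, which fixed its direction on FPKM. Samples were grouped by the labels, and comparisons were made within tables, 8 on FPKM and 4 also with each library scaled to Cdh5. All 35 genes are accounted for; of the further matrix genes, up to 3 called in each direction with the largest difference and a mean of at least 5 FPKM in the higher group are named. The alternatives changed the pseudocount to 0.1 or 5, the filter to none or to a mean of 5 FPKM, the scaling to median-of-ratios, TPM or, for the ratio, the other pan-endothelial markers, and the model to one without a trend, with a replicate block or with every library deposited together, and left out each library in turn. Added after seeing the data were limma voom on the recovered reads and averaging Esm1+ replicates 1 and 2. The fit was tested on simulated data. Positions are from GENCODE vM21 and promoters from RefSeq, GRCm38.p6; the annotation the authors used is not given in the sources used here.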

Additional observations from a re-analysis of the deposited data

How the results depend on the processing

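Of the single-gene values recomputed under the alternatives, 4706 kept their direction and side of the threshold, 94 passed it newly and 239 no longer passed it. In 112 more, from 55 pairs of a gene and a comparison, the sign turned while the gene was called in neither setting. In 3 values the sign turned for a gene called in at least 1 of the settings: these were Emilin1 in bone EC against LSK, at -0.27 with TPM, Mmrn1 in the same comparison, at -0.57 with TPM, and Thbs1 as a ratio to Cdh5 in Apln+ EC against diaphysis EC, at -1.33 without Apln+ EC replicate 1 and 0.98 without replicate 2. The counts of called genes moved by more than 1.5 times in 3 other cases: 14 in Lin- against BMC with a mean of at least 5 FPKM, which tests fewer genes, 7 (1 higher and 6 lower) for the ratio in Vav1 DTX EC against Vav1 control EC when scaled to the other pan-endothelial markers, and 5 in Apln+ EC against diaphysis EC with no filter; the cause of the last 2 was not tested. Leaving out 1 library gave 29 to 31 calls in bone EC against LSK, 22 to 27 against Lin- and 31 to 31 against BMC, 26 to 27 in Lin- against BMC, 18 to 24 in irradiated bone EC against bone EC and 14 to 17 for its ratio, 3 to 14 in the Vav1 pair and 0 to 7 for its ratio, 2 to 25 in Apln+ EC against diaphysis EC and 0 to 26 for its ratio, and 16 to 20 in 9Gy1D EC against Esm1+ EC and 15 to 22 for its ratio. The libraries behind the widest ranges are Vav1 DTX EC replicate 2 and Apln+ EC replicate 1. Equal replicate numbers were not taken to mark paired libraries, since in no comparison did all 3 pairs of deviations correlate above 0.1. The pairs gave 0.33, -0.06 and 0.3 in Apln+ EC against diaphysis EC. In irradiated bone EC against bone EC they gave -0.16, 0.26 and 0.21. With 3 libraries a group this rule cannot exclude pairing. With a replicate block the counts were 30 in bone EC against LSK, 27 against Lin-, 31 against BMC, 27 in Lin- against BMC, 21 in irradiated bone EC and 17 for its ratio, 7 in the Vav1 pair and 4 for its ratio, 10 in Apln+ EC and 9 for its ratio, and 18 in 9Gy1D EC and 17 for its ratio. Median-of-ratios scaling shifted the median of all genes by only -0.0667 to 0.04 on the log2 scale. The deposited values were thus already close to that scaling. This alternative therefore checks little, and medians of all genes near 0 come with the scaling. TPM shifted the median of all genes by -0.684 in bone EC against LSK, 0.19 against Lin-, 0.405 against BMC, 0.218 in Lin- against BMC, 0.254 in irradiated against untreated bone EC, 0.247 in the Vav1 pair, -0.15 in Apln+ EC and 0.249 in 9Gy1D EC on the log2 scale. The share of calls that were higher was then 22.8% against 49% as deposited for LSK, 68.1% against 50.8% for BMC, 68% against 53.8% for the irradiated pair, 68.7% against 43% for the Vav1 pair, 27.7% against 38% for Apln+ EC and 64% against 47.2% for 9Gy1D EC. With 3 libraries a group, no exact permutation test can reach below 0.1, and the LSK libraries were the shallowest.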

Other observations

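Scaling to Cdh5 changed the spread between replicate libraries by different amounts in different groups. The median coefficient of variation of the genes of the set at 1 FPKM or more was 46.6% on FPKM and 26.8% as a ratio to Cdh5 in Vav1 DTX EC, and 26.6% on FPKM and 15.1% as a ratio in Esm1+ EC. In bone EC it was 14.9% on FPKM and 18.2% as a ratio, and 9 of 32 genes had the smaller spread as a ratio. Agrn set Esm1+ replicate 3 apart: the ratio of Hspg2 to Agrn was 0.331, 0.357 and 1.89 in the Esm1+ libraries and 0.506, 0.626 and 0.52 in the 9Gy1D libraries.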
